A study of Mus musculus with 12 samples.

Results

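Caveolins and cavins build caveolae, the small flask-shaped pits of the plasma membrane. The genes described are the caveolins Cav1 and Cav2, the cavins Cavin1, Cavin2 and Cavin3, and Ehd2. They were chosen by name, and every probe set (a group of short probes for 1 transcript) that carries only 1 of these symbols was taken. This gave 15 probe sets for the 6 genes, among 45101 probe sets on the array and 18193 genes with a probe set of their own. All 6 genes passed the filter on low signals, and 13 of the 15 probe sets did; both others belong to Ehd2.

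Caveolin-1 inserts into the inner face of the membrane as oligomers, and caveolin-2 needs it to leave the Golgi. Cavin-1 coats the bulb and is required for caveolae to form, cavin-2 helps to bend the membrane, cavin-3 binds protein kinase C delta, and the ATPase EHD2 sits at the neck and holds the pit at the surface. In the brain these genes are best known from endothelial and mural cells of vessels, and Cav1 has long been studied in fibroblasts transformed by oncogenic Ras, where its level falls.

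Expression was measured on 12 oligonucleotide arrays from 6 groups of cultured mouse neural cells, 2 arrays each. All cells were p53-/-, of strain BL6, and derived from brain of embryonic day 14.5. NSC are neural stem cells grown without serum as floating spheres, with PDGF, bFGF and forskolin among the supplements. OPC are oligodendrocyte precursor cells induced from them with 10 ng/ml PDGFAA, 2 ng/ml bFGF and 0.25% fetal calf serum and purified by immunopanning. AST are astrocytes induced by 10% serum for 3 weeks. NSCL61, OPCL61 and ASTL61 are stable lines from the same 3 cell types, electroporated with pCMS-EGFP-HRasL61 (oncogenic HRas with green fluorescent protein) and pBabe-neo, selected in neomycin at 0.5 mg/ml and purified by flow cytometry as GFP-positive cells. No parent was taken through those steps, so HRasL61 and the steps cannot be told apart. The medium differed between the 3 cell types, so cell type and medium cannot be told apart either. Whether a line is 1 clone or a pool, and whether the 2 arrays of a group come from separate cultures, is not stated. The p-values then measure only the spread between these arrays, which may be technical.

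The labels were set against marker genes. Of 5 oligodendrocyte precursor genes, Olig1 and Olig2 set OPC apart, with Olig2 at 12.27 ± 0.05 (log2 signal, mean ± SD, n = 2) in OPC, 6.36 ± 0.65 in OPCL61 and 2.71 to 2.91 elsewhere. Sox10 was flat, at 6.15 to 6.44, and Pdgfra was also high in NSC (10.64 ± 0.17, against 11.57 ± 0.40 in OPC). The list averaged 10.39 to 10.60 in the OPC arrays and 6.90 to 7.33 in OPCL61. The NSC arrays went against their label. Sox2, a stem cell transcription factor, was at 4.41 and 6.79 there and between 10.07 and 11.99 in the other 10 arrays. The stem cell list of 6 genes averaged 5.48 to 5.64 in the NSC arrays and 6.55 to 8.88 in the others. Its other genes did not single out NSC as clearly. Nes was at 8.26 ± 0.15 in NSC and 8.58 to 9.28 elsewhere. Prom1 (4.11), Hes5 (5.14), Pax6 (5.22) and Fabp7 (5.04) were each lower still in some other group. All 8 genes of a pericyte and fibroblast list lay above 5.183, the median of all values, in NSC, 5 of 8 in AST, 6 in ASTL61, 3 each in NSCL61 and OPCL61, and 1 in OPC. The mean level of that list was 10.00 to 10.76 in the NSC arrays, 7.25 to 7.84 in AST, 8.32 to 8.96 in ASTL61, 4.97 to 5.04 in NSCL61, 4.57 to 4.93 in OPCL61 and 3.89 to 4.01 in OPC. A smooth muscle list lay at 9.83 to 9.89 in NSC, 7.92 to 8.60 in AST and ASTL61, 5.90 to 6.36 in OPC, 5.17 to 5.28 in NSCL61 and 4.94 to 5.26 in OPCL61. Endothelial genes were low in all groups, with Pecam1 between 3.66 and 4.15 and 1 of 8 genes (Kdr) above the median. The AST arrays went against their label too. Gfap was at 5.57 ± 0.22 in AST and 6.90 ± 1.17 in OPC, and the astrocyte list of 6 genes averaged 5.22 to 5.24 in AST and 6.73 to 7.03 in OPC. The RNA integrity controls had a narrow range. The 3' minus 5' signal lay between 0.11 and 0.28 for actin and between -0.28 and -0.09 for Gapdh in all arrays. Within that range the OPC arrays had the lowest Gapdh values, -0.28 and -0.25. The actin values of NSCL61 (0.28 and 0.21) lay above those of NSC (0.16 and 0.17). These bulk signals cannot tell fewer cells of a type from less RNA per cell.

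Cav1 and Cav2 are adjacent protein-coding genes on mouse chromosome 6, and Cavin1 and Cavin2 lie on chromosomes 11 and 1. The stretches before the start of these 4 genes are shown because the caveolin pair and the cavins did not all keep step across the groups. They are the 250 bases before the RefSeq start (GRCm38.p6): chr6:17306085-17306334 on the plus strand for Cav1, chr6:17280935-17281184 plus for Cav2, chr11:100970618-100970867 minus for Cavin1 and chr1:51288876-51289125 plus for Cavin2. A window was found for 5 of the 6 genes. Cavin3 is named only. Capitals mark matches to any of the motifs searched.
Cav1: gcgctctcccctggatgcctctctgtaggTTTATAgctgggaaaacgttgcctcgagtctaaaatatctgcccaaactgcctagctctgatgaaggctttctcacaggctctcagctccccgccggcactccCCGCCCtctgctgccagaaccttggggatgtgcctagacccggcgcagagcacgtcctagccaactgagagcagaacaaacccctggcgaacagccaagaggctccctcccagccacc
Cav2: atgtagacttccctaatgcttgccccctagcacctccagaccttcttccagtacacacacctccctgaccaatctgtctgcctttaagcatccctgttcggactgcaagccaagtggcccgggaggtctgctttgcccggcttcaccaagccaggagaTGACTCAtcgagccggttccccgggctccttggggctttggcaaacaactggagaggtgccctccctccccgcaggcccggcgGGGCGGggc
Cavin1: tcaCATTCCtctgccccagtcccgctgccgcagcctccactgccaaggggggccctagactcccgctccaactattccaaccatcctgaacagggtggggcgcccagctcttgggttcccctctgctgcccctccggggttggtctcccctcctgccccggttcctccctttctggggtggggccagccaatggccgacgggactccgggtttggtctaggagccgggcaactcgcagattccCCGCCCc
Cavin2: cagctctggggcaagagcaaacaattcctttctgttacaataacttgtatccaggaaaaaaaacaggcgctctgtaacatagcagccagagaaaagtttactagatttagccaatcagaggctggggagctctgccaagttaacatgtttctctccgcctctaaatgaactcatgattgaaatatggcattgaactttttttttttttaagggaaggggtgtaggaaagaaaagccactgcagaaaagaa

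The motifs were AP-1 (TGANTCA), TEAD (GGAATG), SP1 (GGGCGG), ETS (CCGGAAG), the TATA box (TATAAA) and the CArG box, on both strands, and none of the matches overlapped another motif. Cav2 held an AP-1 match that begins 92 bases before the start, a motif found in 6.75% of all 32851 windows of this length. Cavin1 held a TEAD match 247 bases before the start (12.6% of windows). Cav1 had a TATA box match on the minus strand, 221 bases before the start (12.4%). An SP1 match was present in Cav1, Cav2, Cavin1 and Ehd2 (32.7%) and not in Cavin2, whose window held none of the 6 motifs. The Cavin2 window had a GC content of 40.4% with 2 CpG dinucleotides, against 59.6% and 10 in Cav1, 62% and 10 in Cav2, 67.6% and 12 in Cavin1, and a median GC content of 52.4% over all windows. These matches describe letters in a window and show no binding.

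Cav1, the caveolin without which most cells make no caveolae, was high in 4 groups and near the median of all values in the other 2. The NSC arrays gave a log2 signal of 12.66 and 12.01 for it and the NSCL61 arrays 10.53 and 10.90. It was at 12.36 and 12.11 in AST, and 12.43 and 12.35 in ASTL61. It was 4.87 and 5.21 in OPC and 4.99 and 5.14 in OPCL61. The OPC and OPCL61 arrays were thus the low ones, they overlapped each other, and no array of the other groups came within 5 log2 units of them. In the order of the levels, ASTL61, NSC and AST overlapped, NSCL61 lay 1.52 below AST, and OPCL61 lay 5.65 below NSCL61. Only 1 probe set reports Cav1. The OPC signals lie near the median of all values, and whether they exceed background was not tested, so differences from them may understate the true ones.

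**Figure D1:**
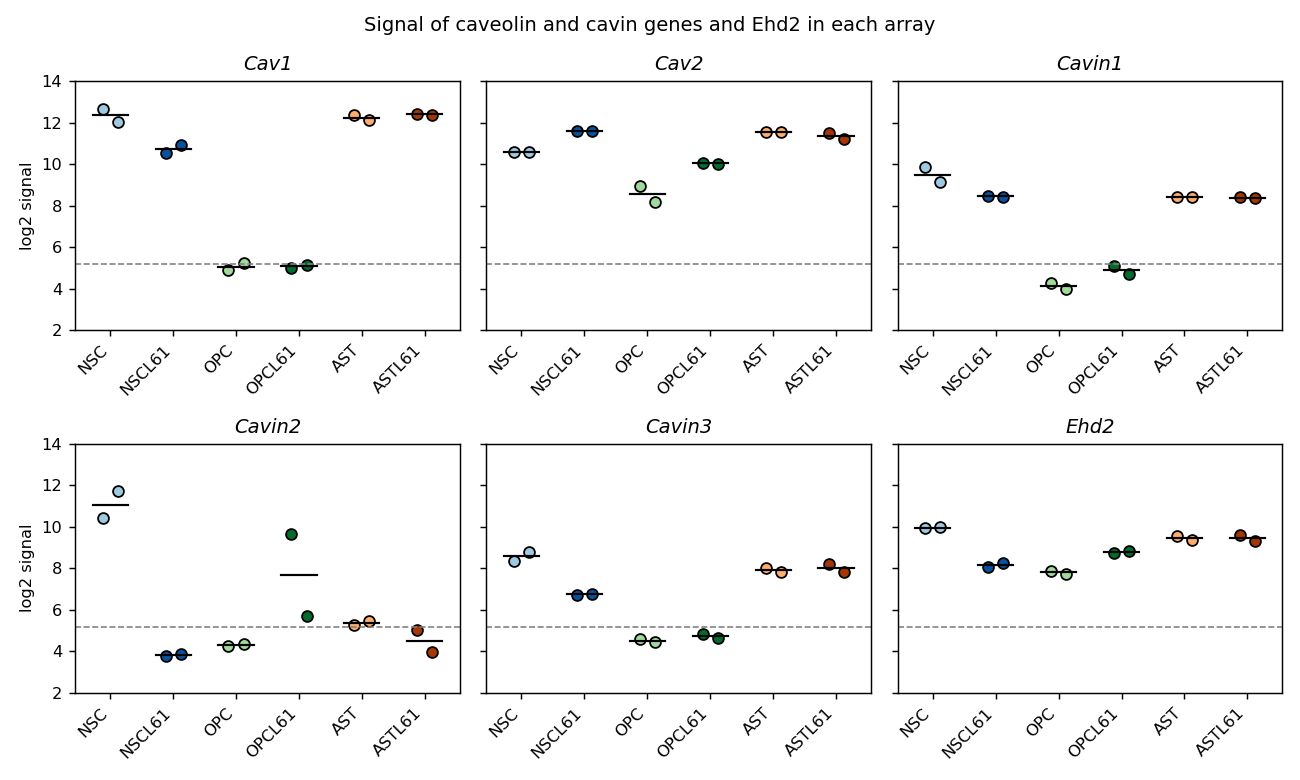
Log2 signal of each of the 6 genes (panels) in the 6 groups (horizontal axis); points are single arrays, black bars the mean of the 2 arrays of a group, and the dashed line is the median of all values, 5.183. Cav1 sits close to the line and Cavin1 and Cavin3 below it in OPC and OPCL61, Cav2 and Ehd2 are above it in every array, and the 2 OPCL61 arrays of Cavin2 lie at 9.67 and 5.70.

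Cav2 kept a clear signal in every group, OPC included. It was at 10.59 and 10.57 in NSC, 11.57 and 11.60 in NSCL61, 8.96 and 8.16 in OPC, 10.07 and 10.01 in OPCL61, 11.52 and 11.53 in AST, and 11.49 and 11.21 in ASTL61. OPC were lowest and NSCL61 highest, and no 2 groups overlapped. NSCL61 exceeded AST by only 0.06, and AST exceeded ASTL61 by 0.18, within the SD of 0.20 in ASTL61. In each of the 9 pairs of groups compared, the arrays of 38.6% to 80.6% of all genes did not overlap. The share of genes that kept all groups apart at once was not counted. The range of the group means was 3.03, against 7.35 for Cav1. A further probe set of Cav2 stayed between 4.32 and 5.42 in all arrays.

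Cavin1, the coat protein, shared with Cav1 the low signals in OPC and OPCL61, but not the order of the other groups. Its signal was 9.85 and 9.11 in NSC, 8.47 and 8.40 in NSCL61, 8.42 and 8.41 in AST, 8.40 and 8.34 in ASTL61, 4.25 and 3.96 in OPC, and 5.10 and 4.72 in OPCL61. NSCL61, AST and ASTL61 lay within 0.07 of each other, NSC stood above them and both OPC groups far below. A dimmer probe set also put NSC on top, at 7.03 and 7.10, and OPC and OPCL61 at the bottom, at 4.62 to 4.90. Another stayed near the median of all values, between 4.51 and 5.43.

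Cavin3, the cavin that binds protein kinase C delta, had 1 probe set. It was at 8.37 and 8.79 in NSC, 7.995 and 7.80 in AST, 8.18 and 7.80 in ASTL61, and 6.71 and 6.78 in NSCL61. The OPC arrays had 4.6 and 4.43 and the OPCL61 arrays 4.84 and 4.62. AST and ASTL61 overlapped, NSCL61 lay 1.16 below AST, and both OPC groups were below the median of all values.

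Ehd2, the ATPase of the caveolar neck, had the narrowest range of group means of the 6 genes, 2.16. Its arrays read 9.92 and 10.00 in NSC, 8.06 and 8.23 in NSCL61, 7.88 and 7.71 in OPC, 8.71 and 8.85 in OPCL61, 9.57 and 9.36 in AST, and 9.58 and 9.33 in ASTL61. Only AST and ASTL61 overlapped, a pair in which the arrays of 38.6% of all genes did not overlap. In the other pairs compared that share was up to 80.6%. NSCL61, high for Cav1 and Cavin1, was here below OPCL61.

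Cavin2, which bends the caveolar membrane, had a pattern of its own. It was at 10.41 and 11.73 in NSC and at 3.76 and 3.86 in NSCL61, 4.27 and 4.37 in OPC, 5.25 and 5.46 in AST, and 5.00 and 3.96 in ASTL61. The OPCL61 arrays disagreed, at 9.67 and 5.70. This gap of 3.96 was the second widest between the OPCL61 arrays among 12835 genes, of which 35 differed by over 2 log2 units there and 7 by over 3. The other Cavin2 probe sets showed the same split, with 8.82 against 5.05 and 8.81 against 5.08. In the array with high Cavin2 the pericyte and fibroblast list averaged 4.93 and the smooth muscle list 5.26, against 4.57 and 4.94 in the other OPCL61 array. The oligodendrocyte precursor and stem cell lists were higher there too, at 7.33 and 8.67 against 6.90 and 8.51. So were the astrocyte and endothelial lists, at 5.38 and 4.13 against 5.3 and 4.1. Adipocyte, skeletal muscle and microglia lists were slightly lower, at 3.49, 5.11 and 4.18 against 3.59, 5.17 and 4.26. The part of these lists in the result was not tested. Of the pericyte and fibroblast list, 6 of 8 genes were higher in the array with high Cavin2. The share of all genes higher in that array was not counted, so this count cannot be judged. Col3a1 (8.12 against 6.92) and Dcn (6.43 against 5.47) led, and Col1a1 (4.07 against 4.31) and Col1a2 (5.67 against 5.83) were lower. The rest of the higher genes, Pdgfrb, Thy1, Lum and Rgs5, were below the median of all values in both OPCL61 arrays. The genes named here were chosen after their values were seen.

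**Figure D2:**
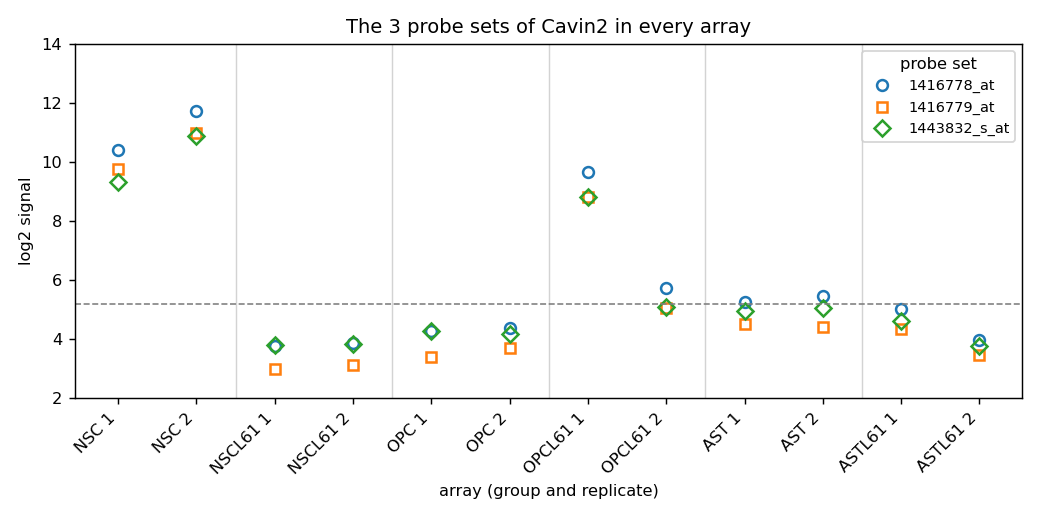
Log2 signal of the 3 Cavin2 probe sets (marker shapes) in each of the 12 arrays (horizontal axis, group and replicate); the dashed line is the median of all values. All 3 are high in both NSC arrays and in OPCL61 replicate 1 (8.81 to 9.67) and lie at 5.05 to 5.70 in OPCL61 replicate 2.

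The parental cell types were compared first, by limma over 12835 genes with Benjamini-Hochberg adjustment and a threshold of 0.05 on the adjusted p. OPC had lower signals than NSC for all 6 genes, where 51.5% of genes tested passed in either direction, 24.3% lower and 27.2% higher. Cav1 differed by -7.30 ± 0.22 (log2 difference ± SE; adjusted p = 1.38e-08). Cavin1 differed by -5.38 ± 0.22 and Cavin3 by -4.07 ± 0.18. Cavin2 differed by -6.75 ± 1.00 (adjusted p = 3.97e-04). Cav2 and Ehd2 differed less, by -2.02 ± 0.22 and -2.16 ± 0.14. The median of the 6 genes was -4.72, against -0.01 over all genes tested. The pericyte and fibroblast list averaged 10 to 10.76 in the NSC arrays and 3.89 to 4.01 in OPC. Its part in the result was not tested.

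OPC against AST shares the OPC arrays with that comparison. Here 5 of 6 genes were lower in OPC, with 51.7% of genes called in either direction, 25.6% lower and 26.1% higher. Cav1 differed by -7.19 ± 0.22 (adjusted p = 1.83e-08), Cavin1 by -4.31 ± 0.22, Cavin3 by -3.38 ± 0.18, Cav2 by -2.96 ± 0.22 and Ehd2 by -1.67 ± 0.14. Cavin2 did not pass, at -1.03 ± 1.00 (adjusted p = 0.418; 95% interval -3.29 to 1.23). It did pass when only the OPC and AST arrays were fitted, at -1.03 (adjusted p = 0.00117), since the SE of the full fit takes in the disagreement of the OPCL61 arrays. The median of the 6 genes was -3.17. This comparison does not use the NSC arrays. The AST arrays also held pericyte and fibroblast genes, with Col1a1 at 11.13 ± 0.54, and their part in the result was not tested.

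Of the 6 genes, 4 were lower and 1 higher in AST than in NSC, where 30.4% of genes were called, 15% lower and 15.4% higher. Cav1 was at -0.11 ± 0.22 (adjusted p = 0.772; 95% interval -0.61 to 0.39) and did not pass. Cavin2 was lower by far, at -5.72 ± 1.00 (adjusted p = 0.00288), the ninth largest difference in size among the genes tested. The pericyte and fibroblast list was lower in AST too, at 7.25 to 7.84 against 10 to 10.76 in NSC. Its part in the result was not tested. Cavin1 differed by -1.07 ± 0.22 and Cav2, in the other direction, by 0.95 ± 0.22. Cavin3 at -0.68 ± 0.18 and Ehd2 at -0.50 ± 0.14 passed narrowly (adjusted p = 0.0184 and 0.0226). Cavin3 lost its call without NSC replicate 2 or AST replicate 2 (-0.47 and -0.59). Ehd2 lost its call without NSC replicate 1, NSC replicate 2 or AST replicate 2 (-0.54, -0.45 and -0.39). Cav2 lost its call without either AST array (0.95 and 0.94). Its dim probe set gave 0.47 (limma adjusted p = 0.0989). The count of 5 fell to 2 without AST replicate 2 and to 3 without NSC replicate 2.

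NSCL61 against NSC asks what differed in the stem cell line with HRasL61. All 6 genes passed, 5 lower and 1 higher, where 37.8% of genes were called, 17.1% lower and 20.7% higher. Cavin2 fell by 7.26 on the log2 scale (SE 1.00; adjusted p = 4.71e-04). Its NSCL61 signal lies below the median of all values, so this may understate the fall. Cavin3 changed by -1.84 ± 0.18 (adjusted p = 5.14e-05), Ehd2 by -1.81 ± 0.14, Cav1 by -1.63 ± 0.22 (adjusted p = 4.33e-04) and Cavin1 by -1.05 ± 0.22. Cav2 rose, by 1.01 ± 0.22 (adjusted p = 0.00554), a signal 2.01-fold that of NSC. The adjacent genes Cav1 and Cav2 thus moved in opposite directions, a 3.09-fold lower and a 2.01-fold higher signal, with 95% intervals of -2.13 to -1.13 and 0.52 to 1.5.

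These falls came with those of mural genes, since Pdgfrb went from 11.32 ± 0.16 in NSC to 4.17 ± 0.40 in NSCL61 and Acta2 from 13.66 ± 0.02 to 6.33 ± 0.05. Their part in the result was not tested. Cavin1 in NSCL61, at 8.44 ± 0.05, was within 0.02 of its level in AST. Leaving out any 1 array kept 6 of 6 calls.

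OPCL61 against OPC gave 4 higher genes and 0 lower by limma (4 and 0 also at an unadjusted p under 0.05), where 48.5% of genes were called, 24.5% higher and 23.9% lower. Cav2 rose by 1.48 ± 0.22 (adjusted p = 4.25e-04), Ehd2 by 0.99 ± 0.14 and Cavin1 by 0.81 ± 0.22 (adjusted p = 0.0148). Cav1 was at 0.03 ± 0.22 (adjusted p = 0.934; 95% interval -0.47 to 0.53) and Cavin3 at 0.22 ± 0.18, neither passing, and both near or below the median of all values in both groups. Cavin1 also stayed below that median in OPCL61, and a dimmer probe set of it gave -0.12. Cell type markers moved with this comparison: Olig2 went from 12.27 to 6.36 and Pdgfra from 11.57 to 7.59, the stem cell gene Prom1 from 3.61 to 8.39 and the collagen Col3a1 from 4.21 to 7.52. Apart from Olig2, these genes were chosen after their values were seen. The stem cell list that holds Prom1 averaged 8.87 to 8.88 in OPC and 8.51 to 8.67 in OPCL61. Its other genes were Sox2 (11.94 to 11.61), Nes (9.15 to 9.28), Pax6 (6.1 to 5.01), Hes5 (8.77 to 5.31) and Fabp7 (13.67 to 11.94). The pericyte and fibroblast list averaged 3.89 to 4.01 in OPC and 4.57 to 4.93 in OPCL61. The smooth muscle list averaged 5.90 to 6.36 and 4.94 to 5.26. The part of these markers in the result was not tested.

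Cavin2 rose by 3.36 ± 1.00 (adjusted p = 0.0203), but its mean of 7.68 ± 2.80 joins arrays at 9.67 and 5.70. Without OPCL61 replicate 1 the change was 1.38 (adjusted p = 0.0606) and without replicate 2 it was 5.35 (adjusted p = 1.00e-04). The call was also lost without either OPC array. Both OPCL61 arrays lay above both OPC arrays for this gene, in a comparison where the arrays of 75.1% of all genes did not overlap. Of the 4 calls, those of Cav2 and Ehd2 held without any 1 array, and Cavin1 lost its call without OPC replicate 2 (0.66, adjusted p = 0.0996) or OPCL61 replicate 1 (0.61, adjusted p = 0.0917), leaving 2 of 6. Among the Ehd2 probe sets, 1 more gave a rise of like size, 0.97, and another gave 0.04. The dim Cav2 probe set gave -0.11.

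ASTL61 against AST gave 0 of 6 calls by limma, and 0 at an unadjusted p under 0.05, where 0.0234% of genes were called. Cav1 was at 0.15 ± 0.22 (95% interval -0.35 to 0.65), Cav2 at -0.18 ± 0.22, Cavin1 at -0.04 ± 0.22, Cavin3 at 0.09 ± 0.18 and Ehd2 at -0.01 ± 0.14 (95% interval -0.32 to 0.30). Cavin2, the least precise, was at -0.87 ± 1.00. For the first 5 genes the intervals leave out changes of 1 log2 unit in either direction. For Cavin2 they do not, at -3.13 to 1.39.

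**Figure D3:**
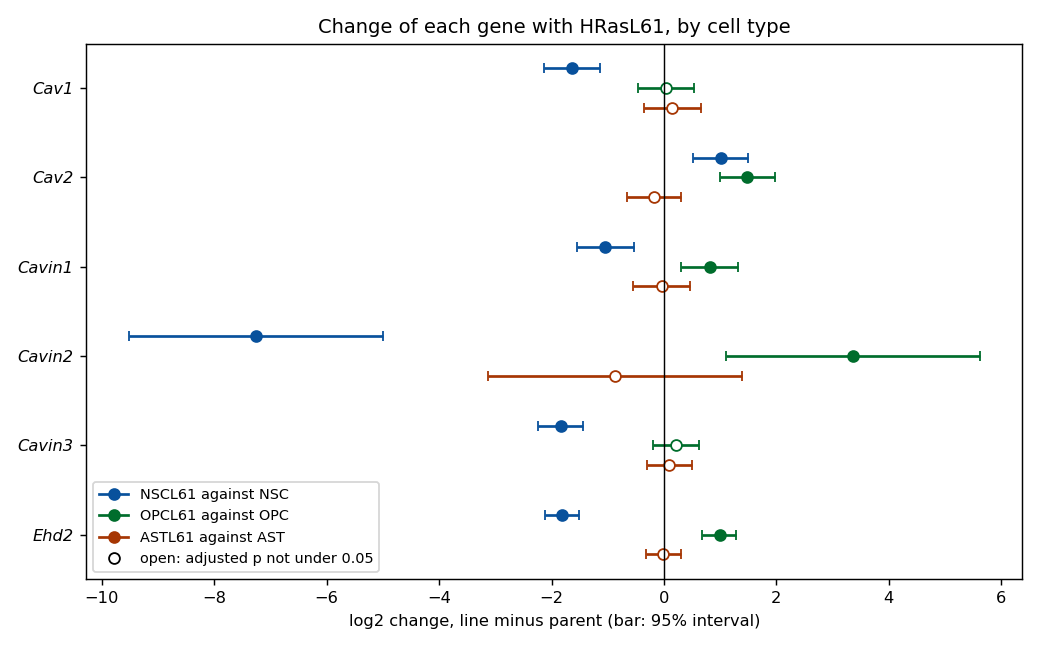
Log2 change of each gene (rows) from parent to HRasL61 line for the 3 cell types (colours), with bars for the 95% interval of the limma fit and open points where the adjusted p was not under 0.05. NSCL61 shows 5 falls and a rise of Cav2, OPCL61 shows 4 rises, and all ASTL61 points are open.

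The difference between changes was tested directly. The change in OPCL61 exceeded that in NSCL61 for 5 of 6 genes, where 37.9% of genes were called, 18% higher and 19.9% lower. For Cavin2 this difference was 10.63 ± 1.42 (adjusted p = 3.81e-04), and it was 8.64 without OPCL61 replicate 1. Ehd2 followed with 2.80 ± 0.19, Cavin3 with 2.06 ± 0.25, Cavin1 with 1.85 ± 0.32 and Cav1 with 1.65 ± 0.31. The means of Cav1, Cavin1 and Cavin3 lay below the median of all values in both OPC and OPCL61, where a fall might not be seen. For Cav1 and Cavin3, whose own change in OPCL61 did not pass, the difference mainly restates the fall in NSCL61. Cav2, which rose in both lines, did not pass, at 0.47 ± 0.31 (adjusted p = 0.258). Without OPC replicate 1 it passed, at 0.87 (adjusted p = 0.00913), and without OPC replicate 2 it was 0.08. The change in ASTL61 differed from that in NSCL61 for all 6 genes, where 25.3% of genes were called, 12.4% higher and 12.9% lower. Of the 6 genes, 5 were higher and Cav2 lower, at -1.18 ± 0.31 (adjusted p = 0.0207). Since 0 of 6 passed in ASTL61 against AST, these differences mainly restate the changes in NSCL61. The Cav2 call was lost without NSC replicate 2, ASTL61 replicate 2 or either NSCL61 or AST array (adjusted p = 0.0513 to 0.0651). That of Cavin1, 1.00 ± 0.32, was lost without any 1 array but NSC replicate 2. These comparisons share the NSC and NSCL61 arrays. Between OPCL61 and ASTL61 the changes differed for Cav2 by 1.66 ± 0.31, Ehd2 by 1.00 ± 0.19 and Cavin2 by 4.23 ± 1.42 (adjusted p = 0.0439), 3 of 6, where 35.4% of genes were called. The Cavin2 call held only without an OPCL61 array, at 2.25 and 6.21, and was lost without any 1 of the OPC, AST or ASTL61 arrays.

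The lines themselves still differed after HRasL61. OPCL61 had lower Cav1 than NSCL61 by -5.65 ± 0.22 (adjusted p = 2.78e-07) and than ASTL61 by -7.32 ± 0.22 (adjusted p = 3.63e-08). Against NSCL61 all 6 genes passed, 4 lower and 2 higher (26.7% of genes called, 13.4% lower and 13.3% higher), and against ASTL61 5 were lower and 1 higher (36.6%, 17.7% lower and 18.9% higher). The higher ones were Cavin2, at 3.87 ± 1.00 and 3.20 ± 1.00, and, against NSCL61, Ehd2 at 0.64 ± 0.14. Without OPCL61 replicate 1 the Cavin2 values were 1.89 (adjusted p = 0.0329) and 1.22 (adjusted p = 0.111). The Cavin2 call against NSCL61 was lost without either NSCL61 array (adjusted p = 0.0938 and 0.0845), and that against ASTL61 without either ASTL61 array (0.0587 and 0.154). The Ehd2 call was lost without NSCL61 replicate 1 (0.55, adjusted p = 0.073), and the dimmest kept Ehd2 probe set gave -0.18. ASTL61 exceeded NSCL61 for 3 genes (32.7% of genes called, 16.1% higher and 16.6% lower), Cav1 by 1.68 ± 0.22, Ehd2 by 1.31 ± 0.14 and Cavin3 by 1.25 ± 0.18. Cavin1 was at -0.07 ± 0.22 and Cav2 at -0.24 ± 0.22, neither passing.

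Over the 12 arrays, Cav1, Cavin1 and Cavin3 ran together, with Pearson r of 0.97 for Cav1 with Cavin1, 0.97 for Cav1 with Cavin3 and 0.95 for Cavin1 with Cavin3. Cav2 had an r of 0.81 with Cav1 and Ehd2 one of 0.81 with Cavin3. Cavin2 stood apart, with r of 0.10 with Cav1, -0.08 with Cav2 and 0.24 with Cavin1, and its closest partner was Ehd2 at 0.59. The arrays fall into 6 groups of 2, so these values mostly reflect 6 group means and are given as a description.

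The genes whose pattern was most like that of Cav1 over the 12 arrays were Serpinh1 (the collagen chaperone; r = 0.991), Trip6 (a focal adhesion protein; r = 0.991) and Tpm2 (a tropomyosin; r = 0.990). Trip6 was at 9.52 in NSC, 9.13 in NSCL61, 9.64 in AST and 4.46 in OPC. For Cavin1 they were Vamp8, Cmtm7 and Anxa6 (r = 0.994, 0.990 and 0.989), and for Cavin3 Ccn2, Tpm2 and Pla2g4a (r = 0.990, 0.987 and 0.985). Ccn2, a secreted matricellular protein, went from 12.75 in NSC to 3.29 in OPC. For Cav2 they were Dcbld2, Cactin and Katna1 (r = 0.974, 0.973 and 0.971), and for Ehd2 Pdk3, Rgs19 and Ccn4 (r = 0.992, 0.983 and 0.979). Cavin2 had few genes like it: Gpc4, a glypican, had an r of 0.951 and Lgals9 and Ldb2 had 0.929, and 7 genes exceeded 0.9, against 158 for Cav1.

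Of 12 caveola partners, 9 were tested. In NSCL61 3 rose and 2 fell, where 20.7% of all genes rose and 17.1% fell, among them Cavin4, the muscle cavin, by 2.06 ± 0.26, Ehd4, a paralog of Ehd2, by 1.98 ± 0.27, and the actin cross-linker Flna at -1.37 ± 0.15. In OPCL61 6 rose and 0 fell by limma (6 and 0 at an unadjusted p under 0.05), where 24.5% of all genes rose and 23.9% fell, with Ehd4 by 3.12 ± 0.27 (adjusted p = 1.51e-05), Flna by 1.16 ± 0.15 and Pacsin3, a membrane-bending F-BAR protein, by 1.09 ± 0.15. The median of the 9 genes was -0.01 in NSCL61 and 1.09 in OPCL61, against 0.04 and 0.05 over all genes. In ASTL61 0 of 9 passed by limma (2 at an unadjusted p under 0.05), and the smallest p was that of Cavin4 at 0.75 ± 0.26 (adjusted p = 0.584). Flna fell in NSCL61 and rose in OPCL61, as did Cavin1, Cavin2 and Ehd2.

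Of 11 proteins known to reside in caveolae, 5 rose and 3 fell in NSCL61, where 20.7% of all genes rose and 17.1% fell. In OPCL61 4 rose and 3 fell, where 24.5% of all genes rose and 23.9% fell. In NSCL61 the water channel Aqp1 changed by -4.09 ± 0.28 (adjusted p = 6.47e-06), the membrane protease Mmp14 by -3.65 ± 0.29 and the purinergic receptor P2rx7 by 1.34 ± 0.17. In OPCL61 the fatty acid transporter Cd36 changed by -2.60 ± 0.27, the channel Trpc1 by 1.31 ± 0.26 and P2rx7 by 0.87 ± 0.17. The medians were 0.69 in NSCL61 and 0.25 in OPCL61. In ASTL61 0 of 11 passed by limma (4 at an unadjusted p under 0.05), with Abca1 at 2.62 ± 0.69 (adjusted p = 0.372).

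Clathrin, AP-2 and the flotillins, which form other routes and domains of the membrane, were taken beside them. Of 12 genes tested, 1 rose and 2 fell in NSCL61, the clathrin light chain Cltb at 1.54 ± 0.15, the dynamin Dnm1 at -2.62 ± 0.27 and Ap2m1 at -0.52 ± 0.14, where 37.8% of all genes were called. In OPCL61 3 rose and 1 fell, with Flot2 at 1.94 ± 0.19, Flot1 at 1.54 ± 0.25 and Dnm3 at -3.20 ± 0.25 (adjusted p = 8.70e-06), where 48.5% of all genes were called. In ASTL61 0 of 12 passed by limma (1 at an unadjusted p under 0.05), and Ap2a1 had the smallest p, at -0.27 ± 0.12 (adjusted p = 0.676). The medians were -0.09 in NSCL61 and -0.04 in OPCL61.

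**Figure D4:**
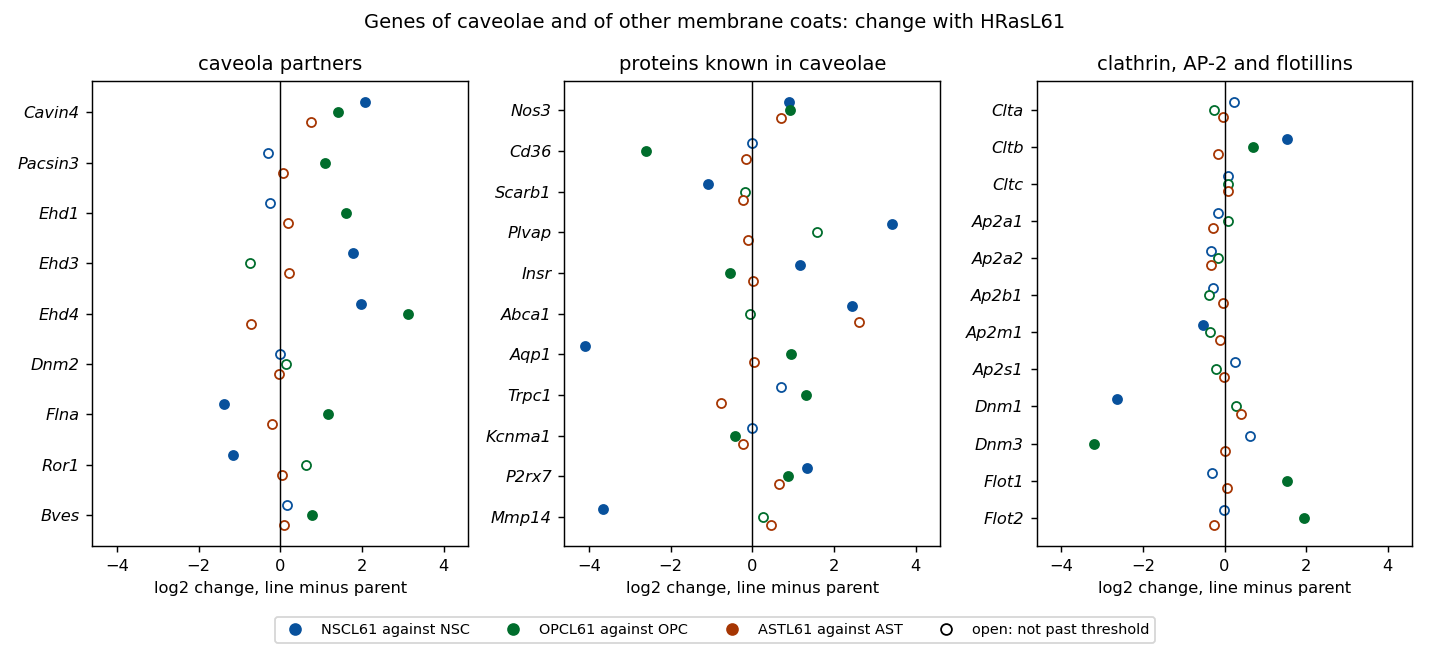
Log2 change from parent to line (horizontal axis) of the genes tested in 3 lists (panels), coloured by cell type, with open points where the adjusted p was not under 0.05. In the caveola partner panel 6 of 9 OPCL61 points are filled and to the right, while NSCL61 has 3 to the right and 2 to the left, and no ASTL61 point is filled in any panel.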

How the data were processed

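Log2 signals per probe set of 12 arrays, deposited by the authors, were used as they stand. How they were background-corrected, summarised and normalized is not given in the sources used here. The median of an array was 5.157 to 5.211. Gene symbols came from the platform annotation, where 34958 of 35890 probe sets name a single gene, checked through Entrez identifiers against RefSeq (GRCm38.p6; 34741 matched, 0 symbols changed). A probe set was kept where 1 group mean lay above 5.183, the median of all values, and the kept probe set with the highest mean stood for its gene (12835 genes). Array controls were left out. The 6 group means were fitted over all 12 arrays in limma 3.58.1 (R 4.3.3, data.table version 1.17.8), with moderated standard errors, 6 residual and 9.302 total degrees of freedom, and Benjamini-Hochberg adjustment over all genes for 12 contrasts. The fit was also run on simulated data for NSCL61 against NSC with known changes, the outcome of which is not reported here. The number of arrays limits the precision. Named genes are the 6 members, up to 3 genes past the threshold with the smallest p per list and line (or the 1 with the smallest p), the 3 genes most like each member by Pearson r, and a few markers; some further markers are named where they bear on a result. The members and lists were chosen with earlier results of these data known. Alternatives covered scaling, filter, probe set choice, replicate block, prior, array weights, arrays fitted, a fold change of at least 2 and leaving out each array; a fit without both NSC arrays was added after seeing the data. Same-numbered arrays did not deviate together (15 correlations between -0.196 and 0.105). Hras and Trp53 were not analysed here.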

Additional observations from a re-analysis of the deposited data

Results flagged for a closer look

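The change with HRasL61 differed between cell types, by the test of the difference in the limma fit, for 14 of the 18 values tested (6 genes in 3 contrasts), where 37.9%, 25.3% and 35.4% of all genes were called in the contrasts as given here. OPCL61 exceeded NSCL61 in its change by 10.63 for Cavin2, 2.80 for Ehd2, 2.06 for Cavin3, 1.85 for Cavin1 and 1.65 for Cav1. The means of the last 3 genes lay below the median of all values in OPC and OPCL61, so a fall there might not be seen. The change in ASTL61 exceeded that in NSCL61 by 6.39 for Cavin2, 1.93 for Cavin3, 1.81 for Ehd2, 1.78 for Cav1 and 1.00 for Cavin1. For Cav2 the change in ASTL61 lay below that in NSCL61, at -1.18. The Cavin1 value of that contrast passed narrowly (adjusted p = 0.0457). In ASTL61 against AST itself 0 of 6 genes passed, so the values of that contrast mainly restate the changes in NSCL61. The change in OPCL61 exceeded that in ASTL61 by 4.23 for Cavin2, 1.66 for Cav2 and 1.00 for Ehd2. In level, OPCL61 lay below ASTL61 for Cav2 (-1.31) and Ehd2 (-0.67). With 0 of 6 genes past the threshold in ASTL61 against AST, this contrast mainly restates the changes in OPCL61. It also follows from the other contrasts, so the 18 values tested are not independent. The values against NSCL61 use the NSC arrays, whose marker genes went against their label, and the OPCL61 values of Cavin2 join arrays at 9.67 and 5.70.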

How the results depend on the processing

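Of the log2 changes under other settings, 772 kept their direction and side of the threshold, 51 lost the call, 4 gained one and 7 turned direction. With 1 array left out, 311 kept both, 37 lost the call, 2 gained one and 10 turned. With all arrays kept, each of the 72 values held its direction and side of the threshold under 5 settings. These were quantile normalisation, array median centring, the filter at the 75th percentile, the trended prior and array weights. The replicate block brought 1 more call, Cavin1 in the change of OPCL61 minus that of ASTL61 (0.85, adjusted p = 0.0319), and changed no other call. In the sequence NSCL61 against NSC, OPCL61 against OPC, AST against NSC, OPCL61 against NSCL61, ASTL61 against NSCL61, OPCL61 against ASTL61, and the differences in change of OPCL61 and ASTL61 from NSCL61 and of OPCL61 from ASTL61, a required fold change of at least 2 left 3, 0, 1, 3, 0, 3, 3, 3 and 0 members called. It left 862, 1226, 339, 346, 608, 653, 1302, 690 and 857 genes in those, and 0, 1768 and 1628 in ASTL61 against AST, OPC against NSC and OPC against AST. With the lowest kept probe set, whose signals lie closer to background, 1 member was called in OPCL61 against OPC, 3 in AST against NSC and 1 in the change of OPCL61 minus ASTL61. It turned Cav2 in OPCL61 against OPC to -0.11, Ehd2 in OPCL61 against NSCL61 to -0.18, Cav2 in the change of OPCL61 minus NSCL61 to -0.74 (-0.13 with the mean of the probe sets), and Cavin1 to 0.11 in ASTL61 against AST (0.04 with the mean) and 0.01 in ASTL61 against NSCL61. Only the arrays compared gave 3 members in AST against NSC and 2598 genes in OPCL61 against ASTL61, and added Cavin2 in OPC against AST (-1.03, adjusted p = 0.00117). The 3 genes called in ASTL61 against AST became 6 with the lowest probe set, 5 with array weights, 0 with only the arrays compared and 6 without both NSC arrays. Fewer arrays or a stricter criterion apart, the cause was not tested.

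With 1 array left out, members called ran from 2 to 4 in OPCL61 against OPC and in AST against NSC. Genes called ran from 3012 to 4099 in NSCL61 against NSC (3012 without NSCL61 replicate 1, 4851 with all), from 0 to 102 in ASTL61 against AST, from 2123 to 3033 in AST against NSC, from 1798 to 2891 in OPCL61 against NSCL61, from 2433 to 3407 in ASTL61 against NSCL61 and from 2023 to 3002 in the change of ASTL61 minus NSCL61. Values not past the threshold that turned sign were Cav1 in OPCL61 against OPC (-0.14 and -0.05, in a range up to 0.20), Cav1 in AST against NSC (0.22 and 0.02, down to -0.43), Ehd2 (0.09 and 0.12) and Cavin3 (-0.01 and -0.10, up to 0.28) in ASTL61 against AST, and Cav1 (0.04, down to -0.30) and Cavin3 (-0.07, up to 0.32) in the change of OPCL61 minus ASTL61.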
